A study of Mus musculus with 4 samples.

Results

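The change of the osteogenic medium's effect between day 3 and day 6 of culture was examined in MC3T3-E1 cells, across every named gene on the array. For each gene the log2 difference between osteogenic and normal medium was taken at each day, and the day 3 difference was subtracted from the day 6 difference, so that a positive change means that osteogenic medium stood higher relative to normal medium at day 6 than at day 3. Of 18193 named genes, 11259 were measured at both days and are the genes counted below, and 10250 of these were above the background floor on all 4 arrays.

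MC3T3-E1 is an immortal, fibroblast-like preosteoblast line derived from the calvaria of newborn C57BL/6 mice. All cultures grew in MEM α with 10% fetal bovine serum. No other additive is named for the normal medium, and the osteogenic medium added ascorbic acid 2-phosphate at 150 µM and beta-glycerophosphate at 10 mM, each for 3 or 6 days. Total RNA of each of the 4 combinations was hybridised to 1 Affymetrix Mouse Genome 430 2.0 array, a 3′ expression array, so there are no replicates and no p-values are given. A gene is counted as higher or lower where the ratio reaches 2-fold. Of the markers of the osteoblast lineage, 3 widely used ones were above the floor of 57.8 on every array: Col1a1 lay between 49645 and 60659, Sp7, which encodes the zinc finger factor osterix, between 574 and 924, and Alpl, which encodes alkaline phosphatase, between 540.0 and 2394. Others, such as Phex and Mef2c, were at the floor on some arrays, as given below.

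Ascorbate is the cofactor of the prolyl and lysyl hydroxylases that let collagen fold and leave the cell, and beta-glycerophosphate releases phosphate for mineral once alkaline phosphatase cleaves it. Osteoblasts in culture first divide, then leave the cell cycle, secrete a collagen matrix and finally mineralise it. A heavy secretory load engages the unfolded protein response, in which ATF6 and XBP1 raise chaperones of the endoplasmic reticulum and ATF4 raises genes of amino acid supply, while E2F and the DREAM complex set the levels of genes for DNA replication and mitosis.

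More genes differed between media at day 6 than at day 3. At day 3, 236 of 11861 measured genes were higher in osteogenic medium (1.99%) and 188 lower (1.59%), and at day 6 these counts were 497 of 11901 (4.18%) and 331 (2.78%). The change itself passed 2-fold upward for 511 genes (4.54%) and downward for 364 (3.23%), and these shares are the background for the gene groups below. Of the 875, 663 were above the floor on all 4 arrays, 129 are lower bounds, 68 upper bounds and 15 have no bound, and 385 were not 2-fold apart at either day alone. For 652 the medium difference had opposite signs at the days, and for 685 (78.3%) the change over time was larger in osteogenic than in normal medium. Selecting genes on a large change favours opposite signs in itself, and neither count was taken over all genes. Over all genes the change had a median of -0.012, and 95% of genes lay between -1.08 and 1.27.

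Genes were sorted by shape. Early-only genes were 2-fold apart at day 3 and within 0.5 on the log2 scale at day 6, and late-only genes the reverse. Sustained genes were 2-fold apart at both days in 1 direction and changed by less than 2-fold, while growing and shrinking genes had a difference of at least 0.5 in 1 direction at both days and gained or lost at least 2-fold. Reversing genes had opposite signs at the days, at least 0.5 on both and 2-fold at 1 of them. Of the 1048 genes 2-fold apart at either day, 440 (3.91% of all genes; 230 higher and 210 lower) fell between these shapes. Late-only genes were the most numerous of the 6 shapes, with 163 higher (1.45%) and 90 lower (0.799%) in osteogenic medium. Sustained genes numbered 72 higher (0.639%) and 46 lower (0.409%), growing genes 48 higher (0.426%) and 13 lower (0.115%), and early-only genes 41 higher (0.364%) and 48 lower (0.426%). Reversing genes numbered 45 that went from lower to higher (0.4%) and 38 that went from higher to lower (0.338%), and shrinking genes 2 in each direction (0.0178% each).

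**Figure D1:**
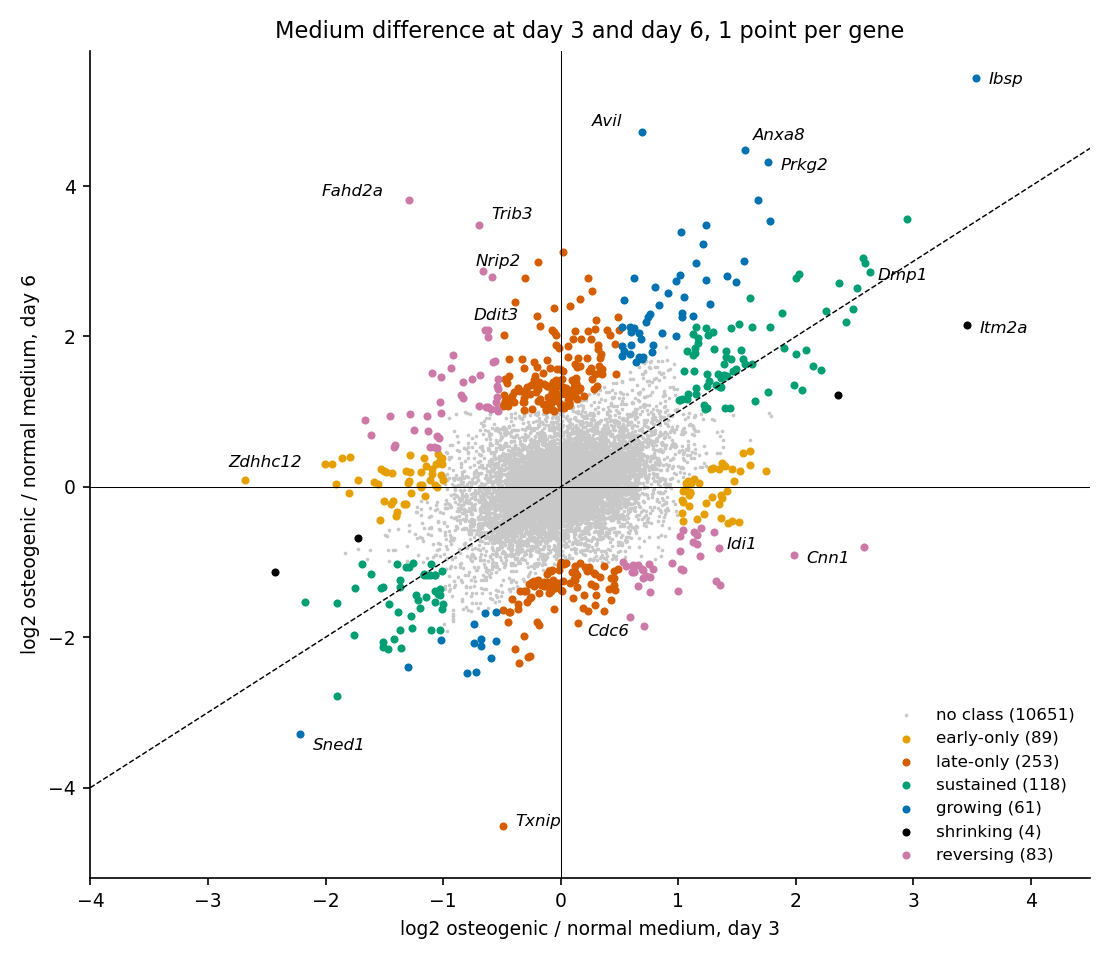
Each point is 1 of 11259 genes, with the log2 ratio of osteogenic to normal medium at day 3 on the x axis and at day 6 on the y axis, coloured by class. The dashed line marks no change between days: Trib3 and Ibsp lie above it, Txnip and Cnn1 below, and sustained genes such as Dmp1 lie near it.

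The sustained class held genes of the mineralising osteoblast. Dmp1, which encodes an acidic matrix phosphoprotein that binds calcium, had signals of 204 in normal and 1229 in osteogenic medium at day 3, and 739 and 5799 at day 6. It was higher in osteogenic medium at both days while also rising over time in both media, so the medium difference of 2.59 at day 3 and 2.97 at day 6 changed by 0.38. The change of Dmp1 was larger on its second brightest probe set (0.81) and with the mean of its sets (0.92). With the floor at the pooled 80th percentile it was 2.16, so its place among sustained genes depends on these choices. Panx3, a gene for a channel that releases ATP and calcium in bone and cartilage cells, had signals of 147 in normal and 1129 in osteogenic medium at day 3, and 129 and 1530.3 at day 6. Its normal medium arrays differed little from each other and both osteogenic arrays were far above them, with a change of 0.62. Alpl had signals of 815 in normal and 2394 in osteogenic medium at day 3, and 540.0 and 1756 at day 6, a difference of 1.55 at day 3 and 1.70 at day 6. Tnfrsf11b, which encodes osteoprotegerin, the soluble decoy for RANKL, differed by 2.42 at day 3 and 2.19 at day 6, Ramp1, a subunit of the calcitonin gene-related peptide receptor, by 2.63 at day 3 and 2.86 at day 6, and Sostdc1, a secreted inhibitor of BMP and Wnt signals, by 2.52 at day 3 and 2.64 at day 6. Differences past 2-fold at both days were also held by the BMP target genes Id1 and Id3, the sphingomyelinase gene Smpd3, the homeobox gene Dlx3 and the Wnt deacylase gene Notum, with changes from 0.075 for Dlx3 to 0.77 for Id3. Of the epithelial markers, Cdh1 (1.61 at day 3 and 2.51 at day 6) and Krt14 (1.45 at day 3 and 2.11 at day 6) were sustained too, as was Lgals7, which had an array at the floor.

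On the sustained lower side, Aldh3a1, an aldehyde dehydrogenase, had signals of 1192 in normal and 318 in osteogenic medium at day 3, and 1578 and 230.2 at day 6. Both osteogenic arrays were below both normal arrays, with a difference of -1.90 at day 3 and -2.78 at day 6. Fat4, an atypical cadherin, differed by -1.51 at day 3 and -2.06 at day 6, Ltbp4, which tethers latent TGF-beta to the matrix, by -1.46 at day 3 and -1.56 at day 6, and Pid1 by -1.51 at day 3 and -2.13 at day 6. Loxl1, which cross-links elastin, was in the same class.

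Ibsp had the largest day 6 difference of the growing genes above the floor on all 4 arrays. This gene encodes bone sialoprotein, which nucleates mineral, and its signals were 386 in normal and 4468 in osteogenic medium at day 3, and 255 and 11063 at day 6. It was lower at day 6 than at day 3 in normal medium and higher in osteogenic medium, so its difference grew from 3.53 to 5.44, a change of 1.91. Prkg2, the membrane-bound cGMP-dependent kinase, had signals of 613 in normal and 2082 in osteogenic medium at day 3, and 398 and 7968 at day 6. It moved in the same pattern, with a change of 2.56. Anxa8, an annexin gene, had signals of 249 in normal and 738 in osteogenic medium at day 3, and 111 and 2479 at day 6, and its change of 2.91 was the largest of the growing genes above the floor on all 4 arrays. Srpx2, a secreted sushi-repeat protein (change 2.36), and Aig1 (1.83) were also growing. Avil, for an actin-severing protein, had signals of 105 in normal and 169 in osteogenic medium at day 3, and 6.75 and 1520.1 at day 6, and Klhl30 of 41.9 in normal and 185 in osteogenic medium at day 3, and 64.0 and 902 at day 6. Avil was at the floor in normal medium at day 6, so its change was at least 4.02, while Klhl30 was at the floor in normal medium at day 3, so its change was at most 2.14.

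Of 19 measured mineralisation genes, 5 had a change past 2-fold upward and 0 downward, with a list median of 0.80 at day 3, 1.83 at day 6 and 0.38 for the change. The 5 were Ibsp, the phosphate importer gene Slc20a1 (1.81), Gpnmb (1.52), the endopeptidase gene Phex and the sphingomyelin synthase gene Sgms2 (1.35). Slc20a1 was late-only, with signals of 435 in normal and 531 in osteogenic medium at day 3, and 271 and 1159 at day 6, and the media were close at day 3 and apart at day 6. Phex was at the floor on both normal medium arrays, with osteogenic signals of 169.9 and 463, so its differences are at least 1.56 at day 3 and 3.00 at day 6 and their change has no bound. Members above zero but under 2-fold included Fam20c, the kinase of secreted matrix proteins (0.83), and the pyrophosphate exporter gene Ank (0.87), both with a day 3 difference near zero (-0.13 and -0.075). On the second brightest probe set Sgms2 had 0.66. Of the 4 below zero, Omd (-0.89) and Trpv4 (-0.77) were the lowest.

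**Figure D2:**
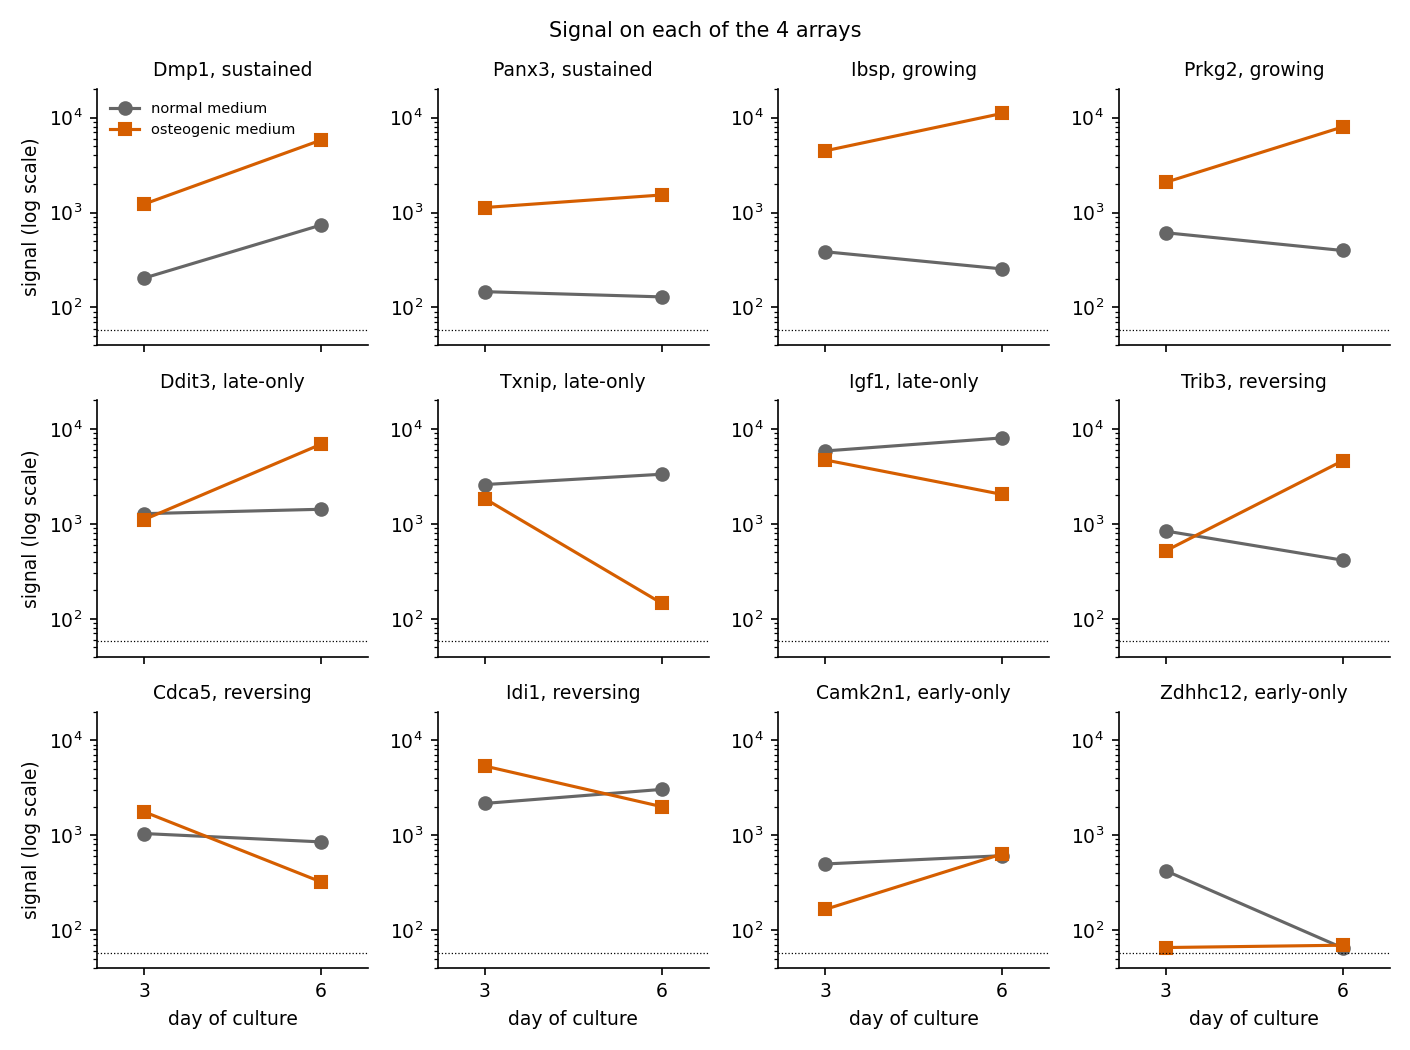
Signal (log axis) of 12 genes on each of the 4 arrays by day of culture, with the class in each title, circles for normal and squares for osteogenic medium, and a dotted line at the floor of 57.8. Sustained genes keep a similar gap at both days, growing genes widen it, late-only genes part at day 6, the lines of reversing genes cross, and early-only genes meet at day 6.

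Of 25 measured collagen chains 3 were past 2-fold upward and 0 downward. The 2 genes of type I collagen, Col1a1 and Col1a2, had changes of 0.24 and 0.33, whose signs turned with quantile normalization and with the mean of all probe sets respectively, and the list had a median of 0.22. The 3 past 2-fold were 2 cartilage chains and a basement membrane chain, and all were growing: Col2a1 had signals of 903 in normal and 1967 in osteogenic medium at day 3, and 853 and 4133 at day 6, Col18a1 of 291 in normal and 594 in osteogenic medium at day 3, and 213 and 1022 at day 6, and Col11a2 of 61.1 in normal and 144 in osteogenic medium at day 3, and 42.3 and 645 at day 6. The osteogenic day 6 array was highest for each of them, with changes of 1.15, 1.23 and, since Col11a2 was at the floor in normal medium at day 6, at least 2.24. On its second brightest probe set Col18a1 had 0.66. Of the 17 chondrocyte markers on the array 8 were at the floor on all 4 arrays and 7 were measured at both days. Their summed signal was 4869.8 in normal and 7018 in osteogenic medium at day 3 and 4305 and 9553 at day 6, and Sox9, the defining factor of cartilage, had a change of 0.16, and -0.15 on its second brightest probe set. The aggrecan gene Acan and the collagen X gene Col10a1, which mark cartilage and its hypertrophic zone, were among those at the floor, and the part of these markers in the matrix results was not tested.

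Among 31 non-collagenous matrix genes 4 were past 2-fold upward and 5 downward, with a median of -0.10, which was positive (0.021) only with each gene's second brightest probe set. Tnc, which encodes the anti-adhesive glycoprotein tenascin C, had signals of 4211 in normal and 6322 in osteogenic medium at day 3, and 2448 and 10674 at day 6, and its change of 1.54 came with a lower day 6 signal in normal medium and a higher one in osteogenic medium. Tgfbi (1.46) and Smoc2 (1.70, but 0.27 on its second brightest probe set) also changed upward, as did Eln, the elastin gene, by at least 2.67 from signals of 23.8 in osteogenic medium at day 3 and 50.7 in normal medium at day 6 that were both at the floor. Small leucine-rich proteoglycans, which coat collagen fibrils, lay on both sides of zero. Aspn had signals of 14438 in normal and 10304 in osteogenic medium at day 3, and 18001 and 5793 at day 6, and the osteogenic day 6 array was the lowest of the 4. Its change was -1.15, or -0.88 on its second brightest probe set. Lum (-1.01) was the other one past 2-fold, while Dcn had -0.92 (0.27 on its second brightest probe set), Ogn -0.83, Fmod -0.15, Prelp 0.047 and Bgn 0.53. Lum was the early-only member, with signals of 13698 in normal and 29054 in osteogenic medium at day 3, and 21592 and 22707 at day 6. Sned1, a matrix glycoprotein gene, was growing on the lower side, with signals of 2343 in normal and 505 in osteogenic medium at day 3, and 3118 and 321 at day 6, and a change of -1.07.

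Protein folding genes of the endoplasmic reticulum parted at day 6. Of 32 measured, 31 had a change above zero and 12 were past 2-fold upward (against 4.54% of all genes) and 0 downward, and the list median went from -0.059 at day 3 to 0.79 at day 6, a change of 0.84. Between days the list's median was 0.14 in normal and 1.001 in osteogenic medium. Hspa5, which encodes BiP, the main HSP70 of the endoplasmic reticulum, had signals of 17554 in normal and 17298 in osteogenic medium at day 3, and 19524 and 43091 at day 6. The first 3 of these were close to each other and the osteogenic day 6 array stood above them, with a change of 1.16. Ddit3, which encodes CHOP, a factor induced when folding stress persists, had signals of 1279 in normal and 1109 in osteogenic medium at day 3, and 1423 and 6900.5 at day 6, and its change was 2.48, or 1.28 on its second brightest probe set. Sdf2l1 (1.93), Hyou1 (1.52), Herpud1 (1.46), the disulfide isomerase gene Pdia4 (1.43) and the secreted chaperone gene Manf (1.34) had the same late-only shape. Creld2 was growing, with a difference of 0.72 at day 3 and 2.19 at day 6. Of the sensor genes Atf6 was late-only (1.06, but 0.74 on its second brightest probe set) and Ern1 lay within 2-fold (0.60), as did Xbp1, whose RNA the Ern1 product splices (0.59). Txndc5 was the member below zero (-0.31).

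Some promoters of this list held the endoplasmic reticulum stress element, CCAAT and CCACG with 9 bases of any kind between them, which ATF6 is known to bind together with NF-Y. Promoter windows from RefSeq (GRCm38.p6, 250 bases before to 50 after each start) were found for 28 of the 32 genes, and 9 held it on either strand, against 14 of 9167 measured genes with a window (0.153%) and 0.119% of all 32851 windows. Among late-only higher genes 1 of 127 held it (0.787%), which was Hspa5 of this list. Of genes past 2-fold upward 3 of 398 held it (0.754%), Hspa5 and Creld2 among them. Stretches of 4 of the 9 list genes are shown for the match itself, written on the strand of the gene, with the element in capitals. The Hspa5 stretch is at chr2:34772005-34772063 (plus strand), that of Creld2 at chr15:88819500-88819558 (plus), that of Pdia6 at chr12:17266471-17266529 (plus) and that of Hsp90b1, which encodes GRP94, at chr10:86705618-86705676 (minus), all upstream of the start.
Hspa5: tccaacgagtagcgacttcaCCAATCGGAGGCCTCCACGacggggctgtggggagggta
Creld2: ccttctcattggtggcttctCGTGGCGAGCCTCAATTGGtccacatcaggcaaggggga
Pdia6: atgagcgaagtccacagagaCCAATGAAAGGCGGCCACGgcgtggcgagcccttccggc
Hsp90b1: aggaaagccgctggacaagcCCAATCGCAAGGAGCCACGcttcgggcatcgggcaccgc
In Creld2 the element runs in the reverse orientation. The 9 genes with the element had changes from 0.52 for Syvn1 to 1.46 for Creld2, with a median of 0.86, and the 19 genes without it had a median of 0.67. Hsp90b1 held a second copy of the element in reverse orientation, which is not shown. A match of letters is a description and does not show binding.

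Genes of the ATF4 and amino acid response had the largest list median of the change, 1.13, from -0.068 at day 3 to 0.99 at day 6. Of 29 measured, 27 had a change above zero, and 16 were past 2-fold upward and 0 downward. Trib3, which encodes a pseudokinase that feeds back on ATF4 and AKT, had signals of 839.9 in normal and 519.6 in osteogenic medium at day 3, and 414 and 4609 at day 6. Osteogenic medium was the lower at day 3 and the higher at day 6, so its difference turned from -0.69 to 3.48, and its change of 4.17 was the largest among genes above the floor on all 4 arrays. Chac1, which degrades glutathione, had signals of 935 in normal and 672 in osteogenic medium at day 3, and 541 and 2194 at day 6, and a change of 2.497. Asns, the asparagine synthetase gene, had signals of 8505 in normal and 7098 in osteogenic medium at day 3, and 4782 and 11236 at day 6, the lowest in normal medium at day 6 and the highest in osteogenic medium at day 6, and changed by 1.49. The mitochondrial folate enzymes Aldh1l2 and Mthfd2 changed by 2.18 and 1.52, and the amino acid transporter genes Slc6a9, Slc1a4, Slc7a1, Slc3a2 and Slc7a5 by 1.57, 1.41, 1.33, 1.29 and 1.12. On the second brightest probe set Slc1a4 had 0.84 and Atf4 itself 1.08, against 0.81 on its brightest. Ddit4 (-0.093) and Phgdh (-0.015) lay near zero. Between days the median of this list was -0.29 in normal medium against 0.68 in osteogenic medium.

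Cytosolic aminoacyl-tRNA synthetases, which charge tRNAs with amino acids, leaned the same way, with a median of 0.73. Of 19 measured, 4 were past 2-fold upward and 0 downward, namely Aars (1.30), Sars (1.23), Nars (1.22, or 0.96 on its second brightest probe set) and Wars (1.04), while Hars and Kars lay below zero (-0.68 and -0.50). Farsa had -0.42, but 1.31 on its second brightest probe set. The composite C/EBP-ATF letters TTGCATCA were found in the promoter windows of 4 of 23 ATF4 list genes and 4 of 12 synthetase genes, against 0.709% of measured genes. Among late-only higher genes 5 of 127 held them (3.94%). The letters are shown for Chac1 at chr2:119351029-119351076 (plus strand) and Nupr1, which encodes a small stress-induced chromatin protein, at chr7:126625553-126625600 (minus), both upstream of the start.
Chac1: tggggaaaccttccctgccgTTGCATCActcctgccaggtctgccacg
Nupr1: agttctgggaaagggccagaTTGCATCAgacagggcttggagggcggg
The 4 ATF4 list genes with these letters, Chac1, Nupr1, Slc1a4 and Vldlr, had changes of 2.497, 1.91, 1.41 and 1.19, the last with 0.85 on its second brightest probe set.

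**Figure D3:**
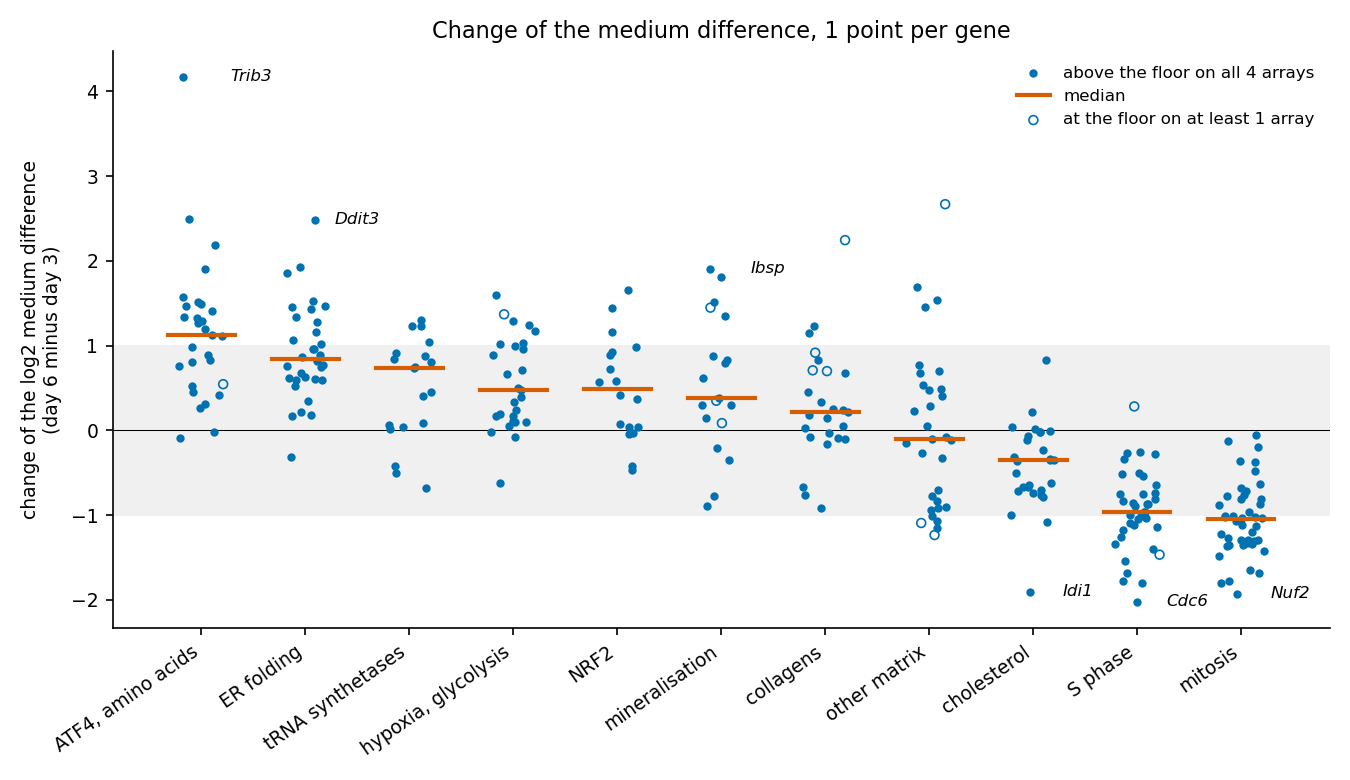
Change of the log2 medium difference (day 6 minus day 3) for each measured member of 11 gene lists, with the list median as a bar and the range within 2-fold shaded; open circles were at the floor on at least 1 array. The ATF4 and folding lists lie mostly above zero, with 27 of 29 and 31 of 32 members, and the mitosis list entirely below it.

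Cell cycle genes took the opposite course, from slightly higher in osteogenic medium at day 3 to lower at day 6. The median of 44 mitosis genes went from 0.29 to -0.85, a change of -1.05, and that of 38 measured genes of DNA replication and S phase from 0.30 to -0.70, a change of -0.96. Of the mitosis genes 28 were past 2-fold downward and 0 upward, and 44 of 44 lay below zero, and of the replication genes 16 were past 2-fold downward and 0 upward (against 3.23% downward of all genes). Between days the medians of both lists were -0.49 and -0.32 in normal medium and -1.66 and -1.14 in osteogenic medium. Nuf2, of the NDC80 kinetochore complex, had signals of 1287 in normal and 1732 in osteogenic medium at day 3, and 963 and 339 at day 6. The osteogenic array was the highest of the 4 at day 3 and the lowest at day 6, with a change of -1.93. Cdc6, which loads the replicative helicase, had signals of 479 in normal and 616 in osteogenic medium at day 3, and 356 and 113 at day 6, and changed by -2.02, and the helicase subunit gene Mcm5 had signals of 2764 in normal and 4662 in osteogenic medium at day 3, and 2087 and 1026 at day 6, and changed by -1.78. Rrm2, the small subunit of ribonucleotide reductase (-1.80), the cyclin gene Ccne2 (-1.69), the mitotic kinase genes Melk (-1.78) and Aurkb (-1.65) and Uhrf1, which maintains DNA methylation (-1.54), were of similar size. Cdca5, which encodes sororin, a guard of sister chromatid cohesion, was in neither list and reversed from 0.76 to -1.40. Mki67 and Top2a, used as proliferation markers, had differences below zero already at day 3 (-0.35 and -0.077) and changed by -1.03 and -1.02. On the second brightest probe set Top2a had -0.92 and Cdca5 a change of -1.33 in place of -2.16. The members nearest to or above zero were Pttg1 (-0.05), Nek2 (-0.12, but -1.01 on its second brightest probe set) and, in the replication list, E2f2 (at least 0.28, near the floor).

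The letters TTTGAA, known as the cell cycle genes homology region, were found in 25 of 36 mitosis promoters (69.4%), against 14.1% of measured genes, and in 30 of 76 late-only lower genes with a window (39.5%). For early-only higher genes the share was 11 of 31 (35.5%). The E2F letters TTTCGCGC or TTTGGCGC were found in 12 of 32 replication genes (37.5%), against 1.90% of measured genes. Among late-only lower genes 3 of 76 held the E2F letters (3.95%). Stretches are shown for genes past 2-fold: Ccnb2, a mitotic cyclin, at chr9:70421696-70421741 (minus strand), Kif11, the kinesin that separates spindle poles, at chr19:37376343-37376381 (plus) and Cdc20, an activator of the anaphase-promoting complex, at chr4:118437344-118437381 (minus) for the homology region, and Uhrf1 at chr17:56304108-56304155 (plus) and Orc1, of the origin recognition complex, at chr4:108579407-108579453 (plus) for E2F.
Ccnb2: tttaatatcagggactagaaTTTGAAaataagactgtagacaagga
Kif11: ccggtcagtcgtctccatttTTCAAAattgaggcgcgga
Cdc20: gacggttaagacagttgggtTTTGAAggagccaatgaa
Uhrf1: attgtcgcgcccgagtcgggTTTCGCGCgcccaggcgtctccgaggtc
Orc1: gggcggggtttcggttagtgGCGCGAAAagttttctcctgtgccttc
In Kif11 and Orc1 the letters are on the opposite strand. Changes were -1.31, -1.27, -1.29 and -1.54 for the first 4 and at most -1.47 for Orc1, which was at the floor in osteogenic medium at day 6 and had 0.75 on its second brightest probe set, where Cdc20 had -0.94. Within the mitosis list the 25 genes with the letters had a median of -1.03 and the 11 without them of -1.33.

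Cholesterol and fatty acid synthesis genes leaned higher in osteogenic medium at day 3 but not at day 6, although 0 of them were early-only by the definition above. The median of 28 genes went from 0.44 at day 3 to -0.057 at day 6, a change of -0.36, with 24 below and 4 above zero, and 3 were past 2-fold downward and 0 upward. Idi1, which isomerises the isoprenoid building block, had signals of 2157 in normal and 5337 in osteogenic medium at day 3, and 3029.5 and 1995 at day 6. The osteogenic array was the highest at day 3 and the lowest at day 6, and its change was -1.91, or -0.97 on its second brightest probe set. Sc5d, of the last steps to cholesterol, had signals of 1736 in normal and 2971 in osteogenic medium at day 3, and 1860.3 and 1501 at day 6, and changed by -1.08. Elovl6, a fatty acid elongase gene, was late-only and just past 2-fold, with signals of 2437 in normal and 2439 in osteogenic medium at day 3, and 3267 and 1633 at day 6. Hmgcs1 and Sqle, which encode enzymes early and midway in cholesterol synthesis, lay within 2-fold (-0.74 and -0.67), from day 3 differences of 0.60 and 0.64. Acaca, for the first enzyme of fatty acid synthesis, was the largest exception, at 0.83.

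Txnip had the lowest change among genes above the floor on all 4 arrays. It encodes an arrestin that restrains glucose uptake and binds thioredoxin, and its signals were 2591 in normal and 1841 in osteogenic medium at day 3, and 3328 and 146 at day 6. The osteogenic day 6 array was far below the other 3, and the medium difference went from -0.49 to -4.51, a change of -4.02. Its relative Arrdc4 had signals of 225 in normal and 226 in osteogenic medium at day 3, and 150.1 and 35.3 at day 6, at the floor in osteogenic medium at day 6, and changed by at most -1.38. Of the other alpha-arrestins, Arrdc1 (0.69) and Arrdc2 (0.24) lay above zero. The hypoxia and glycolysis list had a median change of 0.48, with 7 of 27 past 2-fold upward and 0 downward. Vegfa, the angiogenic growth factor gene, had signals of 553 in normal and 540.4 in osteogenic medium at day 3, and 612 and 1809 at day 6, and changed by 1.60, and the glucose transporter gene Slc2a1 had signals of 1632 in normal and 1577 in osteogenic medium at day 3, and 1191 and 2734 at day 6, and changed by 1.25. For both the osteogenic day 6 array was the highest of the 4. The mitophagy gene Bnip3 (1.29), the prolyl hydroxylase gene Egln3 (1.17, but 0.28 on its second brightest probe set), P4ha2 (1.03), Hk2 (1.02) and Ankrd37 (at least 1.37) completed the 7, while the lactate dehydrogenase gene Ldha had 0.17 and the kinase gene Pdk1 0.50. Ankrd37 was early-only lower, with signals of 121 in normal and 28.3 in osteogenic medium at day 3, and 117 and 145 at day 6. Its change came from the osteogenic day 3 array, which was at the floor, and was 0.29 with the floor at the pooled 60th percentile. Of 18 NRF2 targets Hmox1, Srxn1 and Gclm changed past 2-fold (1.65, 1.44 and 1.16, the last of opposite sign, -0.68, on its second brightest probe set), while Nqo1 had 0.72 and the list median was 0.49.

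Growth factor genes of the IGF family moved apart, and of 20 IGF and FGF genes 3 were past 2-fold upward and 1 downward. Igf1 had signals of 5855 in normal and 4705 in osteogenic medium at day 3, and 8034 and 2039.7 at day 6, and Igf2 of 2391 in normal and 3147 in osteogenic medium at day 3, and 2897 and 12320.2 at day 6. At day 6 osteogenic medium was the lower for Igf1 and the higher for Igf2, and neither differed by 2-fold at day 3, with changes of -1.66 and 1.69. Among the binding proteins, Igfbp5 (1.52) and Igfbp6 (1.02) changed upward, and Igfbp2 was sustained (2.00 at day 3 and 2.77 at day 6). Of 20 TGF-beta genes 5 were past 2-fold upward and 1 downward: Tgfb1, the ligand, had signals of 1052 in normal and 1166 in osteogenic medium at day 3, and 718 and 2355 at day 6, and changed by 1.57, and Tgfbi, Ltbp2 (1.38), Skil (1.32) and Tgif1 (1.03) joined it, with Ldlrad4 (-1.17, or -0.80 on its second brightest probe set) downward. The ligands Tgfb2 and Tgfb3 had -0.35 and -0.43. Among genes that respond to or feed back on ERK signals, Fosl1, an AP-1 subunit, had signals of 178 in normal and 143 in osteogenic medium at day 3, and 41.6 and 397 at day 6. It changed by at least 3.09 on this probe set but by 0.57 on its second brightest one. Dusp4, a phosphatase of ERK, changed by 1.80 and Spry1 by 1.19. The fourth past 2-fold, Etv4, has no bound because of arrays at the floor, while Egr1 (-0.88) and Dusp5 (-0.64) lay below zero. Of 13 factors that act on osteoclasts, Ptgs2, the inducible prostaglandin synthase gene, was growing (249 in normal and 433 in osteogenic medium at day 3, and 326 and 2052 at day 6), and Csf1, for macrophage colony-stimulating factor, was late-only (5434 in normal and 3879 in osteogenic medium at day 3, and 3718 and 7949 at day 6). Their changes were 1.85 and 1.58, and the semaphorin gene Sema4d was the other member past 2-fold (1.58).

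Other late-only higher genes above the floor on all 4 arrays included Steap1, a metalloreductase gene (731 in normal and 859.8 in osteogenic medium at day 3, and 331 and 2261 at day 6), Fam20a, a pseudokinase gene of enamel formation (435 in normal and 524 in osteogenic medium at day 3, and 320.0 and 1939.8 at day 6), and the iron exporter gene Slc40a1 (72.3 in normal and 80.8 in osteogenic medium at day 3, and 74.0 and 417 at day 6). The osteogenic day 6 array was the highest for each, with changes of 2.54, 2.33 and 2.33. Nrip2 and Tmem151a followed the same shape, with changes of 3.19 and 3.11, although Nrip2 had 0.94 on its second brightest probe set. On the late-only lower side, after Txnip, came the amine oxidase gene Aoc3 (1156 in normal and 905 in osteogenic medium at day 3, and 1404 and 278 at day 6), the serpin gene Serpinb1a (803 in normal and 671 in osteogenic medium at day 3, and 1065 and 225 at day 6) and the anion transporter gene Slc26a7 (406 in normal and 335 in osteogenic medium at day 3, and 663 and 137 at day 6). The osteogenic day 6 array was the lowest for each, and their changes were -1.99, -1.99 and -1.99, with -0.89 for the second brightest probe set of Serpinb1a. Growing lower genes included Tspan13 (-1.68, but -0.37 on its second brightest probe set), Caprin2 (-1.68), the prostaglandin E receptor gene Ptger3 (-1.50) and Gfra2, a co-receptor for neurturin (-1.44).

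Reversing genes had large changes by their definition, since differences of opposite sign at the days add up in the change. These genes were dim, with a median of their highest signal of 269 and 318 in the 2 directions, against 665 and 606 for late-only genes. After Trib3, the largest upward change above the floor on all 4 arrays was that of Cdsn, for a cell adhesion protein of the epidermis, with signals of 1382 in normal and 924 in osteogenic medium at day 3, and 692 and 4806 at day 6, and a change of 3.38. Of 17 epithelial markers 9, the keratin genes Krt1 and Krt5 among them, were at the floor on all 4 arrays. Of the 6 measured at both days 1 was past 2-fold upward (Epcam, 1.37) and 0 downward, the list median of the medium difference was 0.94 at day 3 and 1.41 at day 6, and the summed signal was 2699.9 in normal and 3985 in osteogenic medium at day 3 and 2729 and 4499 at day 6. On the other side Cnn1, for the smooth muscle protein calponin 1, had signals of 104 in normal and 413 in osteogenic medium at day 3, and 154 and 82.0 at day 6, with osteogenic medium the higher at day 3 and the lower at day 6 (1.98 at day 3 and -0.91 at day 6), and it changed by -2.89. It was followed by Aldh1a7 (-2.67), Otor (-2.57) and Cyp26b1, which degrades retinoic acid (-2.38). Of 12 measured smooth muscle markers Cnn1 alone passed 2-fold, 10 lay below zero, and the median was -0.58. Their summed signal was 161183 in normal and 150871 in osteogenic medium at day 3 and 142092 and 109107 at day 6. Acta2 had -0.18 on its brightest probe set, but -1.90 on its second brightest and -1.03 with the mean of its sets, and Tagln had -0.26. The part of these epithelial and smooth muscle markers in the other results was not tested. Of the adipocyte, skeletal muscle, leukocyte and endothelial markers on the array, 8 of 13, 10 of 15, 10 of 15 and 6 of 12 were at the floor on all 4 arrays.

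Early-only genes were also dim, with a median of their highest signal of 248 for higher and 200 for lower genes. Zdhhc12, for a palmitoyltransferase, had signals of 421 in normal and 65.4 in osteogenic medium at day 3, and 64.8 and 69.2 at day 6. Normal medium at day 3 was high and the other 3 arrays were near the floor, so its change of 2.78 rests on 1 array. Camk2n1, an inhibitor of CaM kinase II, had signals of 497 in normal and 165 in osteogenic medium at day 3, and 607 and 633 at day 6, and osteogenic medium at day 3 stood low alone, although its second brightest probe set had a change of the opposite sign (-0.34). Zap70 (1.95), Atxn7l2 (1.82) and Mocs1 (1.76; 1.16 for Zap70 and 0.53 for Mocs1 on their second brightest probe sets) were likewise lower at day 3 and within 0.5 of normal medium at day 6. Among early-only higher genes, Tubb2b, a beta-tubulin gene, had signals of 334 in normal and 880.2 in osteogenic medium at day 3, and 516 and 628 at day 6, and Traip, a ubiquitin ligase gene of the replication fork, of 98.5 in normal and 264 in osteogenic medium at day 3, and 157 and 112 at day 6. Their changes were -1.12 and -1.91, and Fbxl8, Adat3 and Slc44a3 had the same shape. With the floor raised to the 80th percentile 1 higher and 0 lower early-only genes were left, against 52 and 17 late-only ones.

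Shrinking genes were few. Itm2a, for a transmembrane protein, had signals of 97.7 in normal and 1075 in osteogenic medium at day 3, and 186 and 831 at day 6, and C1qtnf3, an adipokine gene, of 156 in normal and 802 in osteogenic medium at day 3, and 208 and 486 at day 6. Both stayed higher in osteogenic medium at both days, with changes of -1.30 (-0.62 on its second brightest probe set) and -1.14, and the lower pair was Aox1 (1.04) and Krtap12-1 (1.29).

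Some genes rose above the floor at 1 day alone and so have no change. At day 6 alone 642 genes were measured, of which 32 were higher and 6 lower, and at day 3 alone 602, of which 5 were higher and 10 lower. Over all genes measured at day 6, 4.18% were higher and 2.78% lower, and at day 3 1.99% and 1.59%. Genes measured at 1 day alone passed the filter only through the arrays then compared, so these counts are a description. Car6, a secreted carbonic anhydrase gene, had signals of 36.3 in normal and 36.3 in osteogenic medium at day 3, and 60.9 and 485 at day 6, and Cd300lb of 43.9 in normal and 28.0 in osteogenic medium at day 3, and 32.2 and 296 at day 6. In both the osteogenic day 6 array stood well above the floor and the others at or near it.

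Several groups tied to the osteoblast had a median change near zero. Of 24 osteoblast transcription factors 2 were past 2-fold, Mef2c (at least 1.56) and Runx1 (1.002, or 0.91 on its second brightest probe set), and the median was -0.0037, with Sp7 at -0.31 and Dlx5 at -0.49. Of 31 genes of vesicle coats and the translocon, which act on the same secretory route as the folding genes, 0 passed 2-fold and the median was 0.0069. The 21 BMP genes had a median of 0.062 with 0 past 2-fold, and 27 genes of collagen modification a median of -0.015, with P4ha2 upward and the procollagen enhancer gene Pcolce2 (-1.96) downward. Oxidative phosphorylation genes had a small shift, with 37 of 42 below zero, a median of -0.19 and 0 past 2-fold. The sign of the median was kept in 9 of 12 settings for the transcription factors, 10 for the coats, 10 for the BMP genes and 6 for collagen modification. Cytosolic ribosomal proteins had 32 of 34 above zero and a median of 0.23, which became -0.0073 with quantile normalization.

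**Figure D4:**
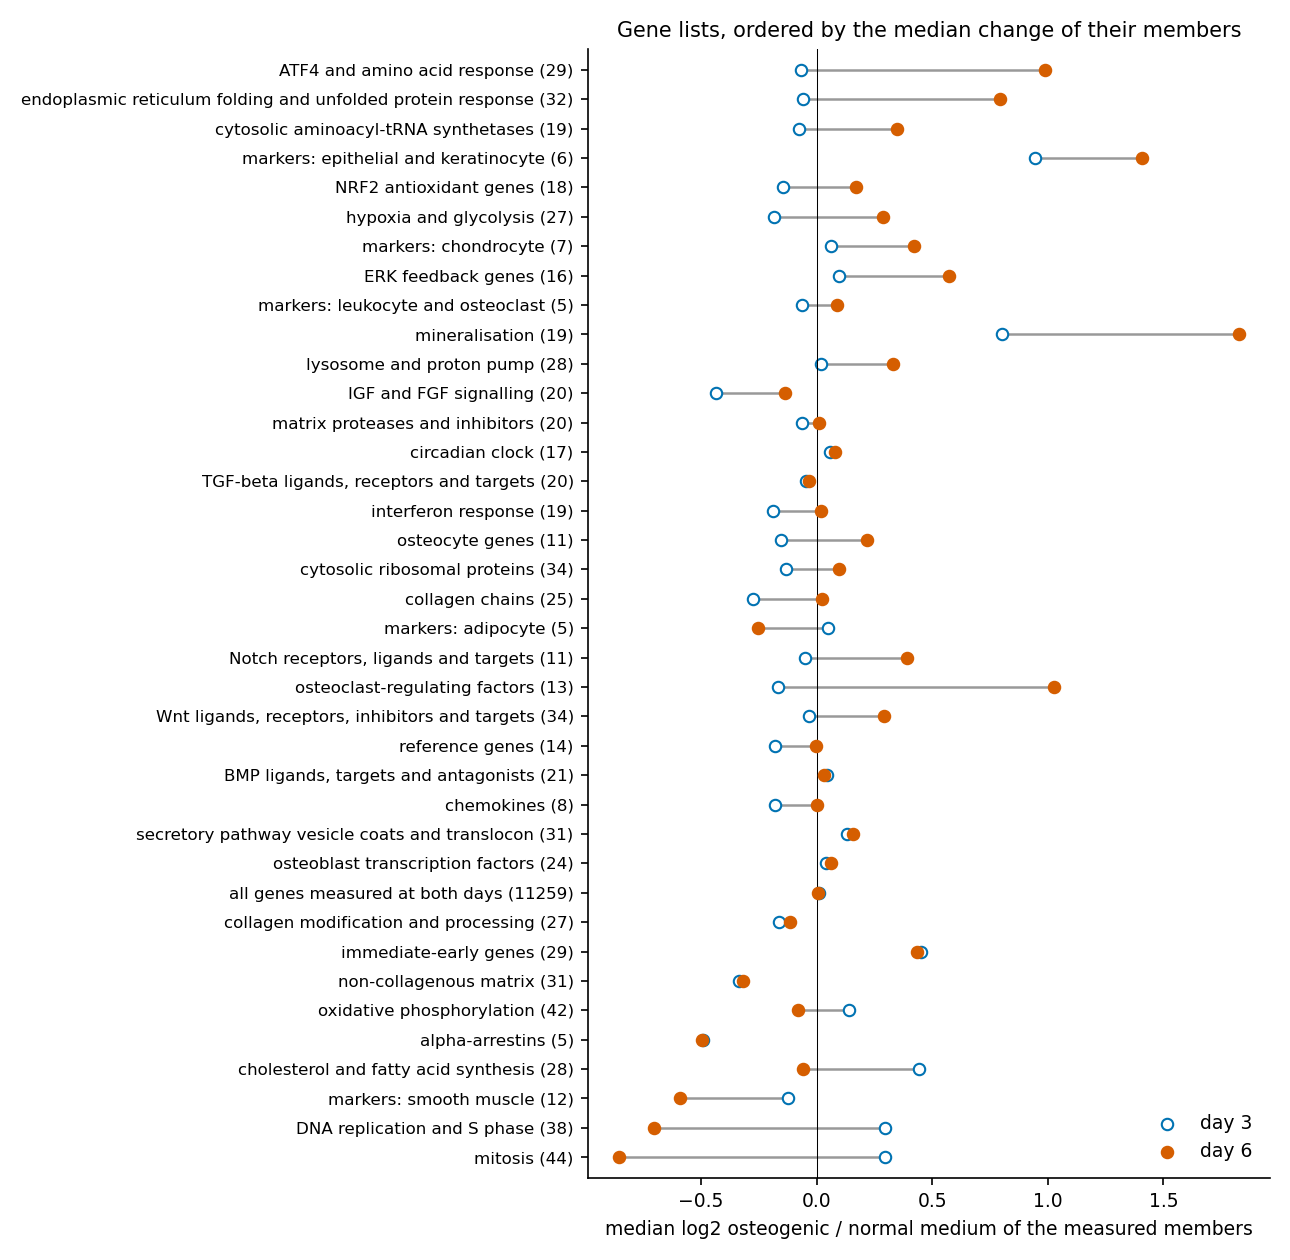
Median log2 ratio of osteogenic to normal medium for each gene list with at least 5 measured members, with an open circle for day 3 and a filled circle for day 6 and the number of members in brackets, ordered by the median change of the members. Mineralisation is above zero at both days, ATF4 and folding genes part at day 6, and mitosis and replication genes go from above to below zero.

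The osteogenic day 6 array weighed most in these results. Of the 875 genes with a change past 2-fold, 383 (43.8%) had 1 array standing apart while the other 3 lay within 0.5 of each other. In 209 of them that array was osteogenic medium at day 6, in 83 osteogenic medium at day 3, in 48 normal medium at day 6 and in 43 normal medium at day 3. Of the 163 late-only higher genes 98 rested on the osteogenic day 6 array and 12 on the normal day 6 array, and of the 90 late-only lower genes 29 and 4. The control signal for the 5′ end of 18S ribosomal RNA was 9162, 8249.8 and 5202 on the first 3 arrays and 746 on the osteogenic day 6 array, while the 3′ to 5′ ratios of the Actb and Gapdh controls were 1.17 to 1.25 and 0.756 to 0.769. The part of this control's difference in the results was not tested.

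**Figure D5:**
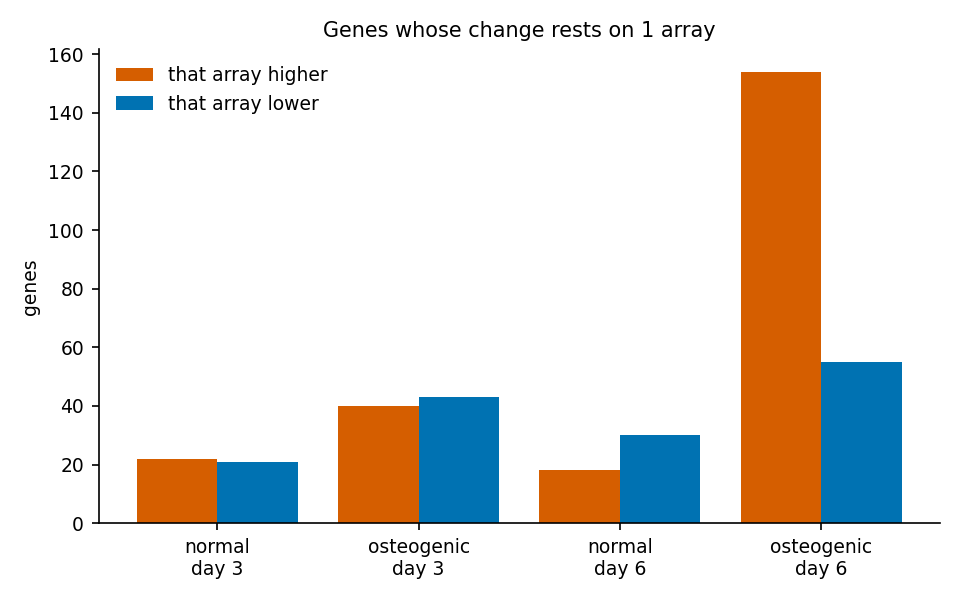
Number of genes, among the 875 with a change past 2-fold, for which 1 array stands apart and the other 3 lie within 0.5 on the log2 scale, by array (x axis) and by whether that array is higher or lower. The osteogenic day 6 array leads with 154 higher and 55 lower.

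The only error these arrays hold is the spread between probe sets of a gene, which covers no difference between cultures. Over 4756 genes whose 2 brightest measured probe sets were both above the floor on all 4 arrays, it came to 0.36 (SD) for the change of 1 probe set. Genes with an array at the floor are not covered by this value. Of 302 genes past 2-fold with another measured probe set, that set had the same sign in 245 (81.1%, Wilson 95% interval 76.3 to 85.1%) and itself passed 2-fold in 125 (41.4%). Agreement was not counted over all genes, so these shares have no background value beside them. The share with the same sign was 49 of 59 for late-only higher, 31 of 36 for late-only lower, and 4 of 6 and 14 of 18 for early-only higher and lower genes. Of 140 genes named here or in the closing section with a change past 2-fold, 63 had a measured second brightest probe set, on which 24 were under 2-fold, and 32 of the 140 were under 2-fold with the mean of all probe sets, which counts sets at the floor on all arrays as zero. With that mean the upward changes of Mef2c (0.31), Sema4d (0.53), Slc20a1 (0.54), Krtap12-1 (0.65), Skil (0.66), Epcam (0.69), Etv4 (0.69), Pdia4 (0.72), Phex (0.72), Gpnmb (0.76), Tgfb1 (0.78) and Slc7a1 (0.93) were among those under 2-fold. On the lower side so were Elovl6 (-0.69), Sc5d (-0.73), Ptger3 (-0.75), Kif11 (-0.995) and Slc26a7 (-0.996). Eln (1.33), Prkg2 (1.79), Mcm5 (-1.10) and Traip (-1.27) stayed past 2-fold with it, as did Trib3 with 2.83 on its second brightest probe set, with folds more than 1.5 times smaller.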

How the data were processed

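RNA of 4 MC3T3-E1 cultures was measured on 4 arrays. The deposited values are 1 intensity per probe set on a linear scale, which the authors had scaled to a trimmed mean of 500 per array, as the values show. The summary software is not given in the sources used here. Arrays were scaled to a common 75th percentile, values below the pooled 50th percentile (57.8) were raised to it, and log2 was taken (Python 3.11.15, pandas 2.3.3, numpy 2.4.6, scipy 1.17.1). A gene is its probe set with the highest mean. It was measured at a day if at least 1 of that day's arrays was above the floor, and a change involving the floor is given as a bound.

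Of 45101 probe sets, 64 were controls, 34945 had 1 gene symbol in the platform annotation, 932 several and 9160 none. Of the 34945, 34741 were matched to RefSeq through the Entrez identifier and took the symbol given there. The steps were tested on simulated data. With 1 array per group there is no test and a fold is a description. Genes were named by a rule (the 10 highest and 10 lowest changes, the top 5 of each class and up to 4 of each of 39 lists), and other list members named were chosen after their values were seen. Members and lists were chosen with earlier results of these data known. Alternatives covered scaling, floor, filter, probe set and thresholds.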

Additional observations from a re-analysis of the deposited data

Results flagged for a closer look

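For 8 genes the osteogenic medium differed from normal medium by at least 2-fold at both days but in opposite directions. Each group is a single array, so the difference between days was not tested. Of the 4 that went from lower to higher, Inpp5j, a phosphoinositide phosphatase gene, was above the floor on all 4 arrays. Its signals were 563 in normal and 278 in osteogenic medium at day 3, and 417 and 1149 at day 6, a change of 2.48. Fahd2a had signals of 141 in normal and 32.7 in osteogenic medium at day 3, and 58.0 and 813 at day 6, and its change was at least 5.10 on this probe set but 1.479 on its second brightest one. Susd5 and Ptprn, with changes of at least 2.60 and at least 2.15, were likewise below the floor in osteogenic medium at day 3 or normal medium at day 6, and Susd5 had 1.37 with the mean of its probe sets. Of the 4 that went from higher to lower, Aldh1a7 had signals of 334 in normal and 856 in osteogenic medium at day 3, and 359 and 145 at day 6, and Otor of 511 in normal and 1275 in osteogenic medium at day 3, and 469.9 and 198 at day 6. Their changes were -2.67 and -2.57. Kcnk4, a potassium channel gene, was close to the floor on 2 arrays and changed by -2.15, and Eme1, a DNA repair endonuclease gene, was below the floor in osteogenic medium at day 6 and changed by at most -2.11.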

How the results depend on the processing

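Under 16 alternatives the 14 counts gave 118 values beyond 1.5 times the reported one and 98 within it. Values beyond it are given as higher and lower, reversing genes first from lower to higher. With 0.3 in place of 0.5 as the limit of no difference, the counts were growing lower 26, shrinking 5 and 5 and reversing 87 and 58. With 0.7 as that limit, the counts were growing 30 and 7, shrinking lower 1 and reversing 17 and 20. At 1.5-fold, the counts were changes 1390 and 1156, early-only 245 and 265, late-only 511 and 398, sustained 268 and 199, growing 112 and 63, shrinking 15 and 18 and reversing 106 and 84. At 3-fold, the counts were changes 136 and 75, early-only 0 and 9, late-only 35 and 12, sustained 21 and 3, growing 18 and 3, shrinking 0 and 0 and reversing 12 and 4. At a floor of the 40th percentile, the counts were changes 805 and 591, early-only 89 and 95, sustained lower 70, growing lower 22, shrinking 4 and 11 and reversing 111 and 75. At the 60th percentile, the counts were changes 307 and 241, early-only 20 and 15, growing lower 7, shrinking lower 1 and reversing 19 and 18. At the 80th percentile, the counts were changes 91 and 50, early-only 1 and 0, late-only 52 and 17, sustained 13 and 12, growing 11 and 2, shrinking 0 and 0 and reversing 4 and 2. Requiring a mean at least 1 above the floor, the counts were early-only lower 31 and reversing higher 27. With the mean of all probe sets, the counts were changes 317 and 231, early-only 25 and 25, sustained lower 23, growing 29 and 7, shrinking 1 and 1 and reversing 26 and 25. With neither floor nor filter, the counts were changes 3057 and 2894, early-only 542 and 515, late-only 642 and 515, sustained 393 and 318, growing 346 and 261, shrinking 292 and 230 and reversing 970 and 970. With only genes above the floor on all 4 arrays, the counts were early-only lower 27 and reversing higher 27. With a pseudocount of 50 in place of the floor, the counts were early-only higher 21, growing lower 5 and shrinking 1 and 1. With the second brightest probe set, the counts were changes 240 and 203, early-only 20 and 30, late-only 62 and 59, sustained 20 and 18, growing 12 and 7, shrinking 0 and 5 and reversing 16 and 18. With a shift to a common median, the counts were shrinking lower 1. The choice of scaling moved no other count beyond 1.5 times, but the share of upward changes was 58.4%, 60.4% without further scaling, 54.96% with quantile normalization and 49.3% with a common median. Over the same scaling, floor and probe set settings, the median change lay between 0.72 and 0.87 for folding genes, 0.97 and 1.16 for ATF4 genes, and -1.13 and -0.79 for mitosis genes. For named genes past 2-fold the sign of the change turned in these cases: with the second brightest probe set that of Camk2n1 became -0.34, Cxcl1 became -0.11, Gclm became -0.68, Orc1 became 0.75; with neither floor nor filter that of Phex became -3.60. Of 64 named genes with a change under 2-fold, 16 turned sign in at least 1 setting, 10 of them on the second brightest probe set. Of 140 past 2-fold, 65 were under 2-fold in at least 1 setting. The cause was not tested. No paired analysis was possible because each group holds 1 array. Likewise no array could be left out. Arrays at the floor touched 33 of 89 early-only, 29 of 83 reversing, 20 of 61 growing and 44 of 253 late-only genes, and nothing here measures the spread between cultures.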

Other observations

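Clock genes had a median change of 0.28 over 17 genes, with 3 past 2-fold upward and 1 downward. The cryptochrome gene Cry2 had signals of 223 in normal and 26.1 in osteogenic medium at day 3, and 154 and 191 at day 6, and its change was at least 2.26. Ciart (1.82) and Bhlhe40 (1.18), which also encode repressors of the clock, were the others past 2-fold upward. Per2, another repressor gene, had signals of 97.7 in normal and 184 in osteogenic medium at day 3, and 171 and 138 at day 6, a change of -1.22 that was -0.41 with the mean of its probe sets. Wnt genes had no common direction, with 2 of 34 past 2-fold upward and 2 downward, and the sign of the list median was kept in 7 of 12 settings. The secreted Wnt inhibitor genes Sfrp4 and Dkk2 lay at opposite ends, at at least 2.52 and -1.60. Immediate-early genes had a median of -0.068. Among chemokines, Cxcl1 had signals of 426 in normal and 459 in osteogenic medium at day 3, and 473 and 1846 at day 6, a change of 1.86 with the osteogenic day 6 array alone high, against -0.11 on its second brightest probe set.

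Of 10092 probe sets without a single gene name, 2322 were measured at both days, and 149 of these were past 2-fold upward and 80 downward, 9.86% together, against 7.77% of named genes.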
